A study of Mus musculus with 4 samples.

Results

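The genes described here are 46 genes of DNA replication and S phase, listed by symbol and followed in hepatocyte preparations of mice labelled as liver-specific Pnpt1 knockouts. Pnpt1 encodes PNPase, which degrades RNA and resides mainly in mitochondria. Probes were assigned to them through the RefSeq accession each probe carries. Of the 46 genes, 42 had at least 1 named probe (52 probes in all), and all 42 were measured among 11489 named genes. No probe was named for Gins1, Gins2, Rfc3 or Rfc5, which are not analysed here.

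The RNA came from hepatocyte preparations of 4 C57BL/6J mice, hybridised to 4 Agilent arrays of the two-colour type. HepKO mice were Pnpt1 fl/fl and heterozygous for Albumin-Cre, a recombinase under the albumin promoter and hence active in hepatocytes. Their WT partners were also Pnpt1 fl/fl and had no Cre, so that the floxed alleles are common to both and the transgene is not. The pair labelled male was aged 12.29 weeks (other label fields give a slightly higher age) and the pair labelled female 4.29 weeks, and each was matched for litter. A dye-swapped set of 2 arrays was made from the same RNA of each pair and counts as 1 replicate, so n = 2 pairs and each group holds 2 mice. The cells were pelleted from collagenase-perfused, homogenized livers, and the protocols name no sort for hepatocytes.

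Checks on the samples come before the results. The share of the 41174 probes well above background ran from 48.2% to 58.6%, depending on array and genotype. Sex-chromosome genes went against the labels in HepKO and in WT. The Y-linked Ddx3y, Eif2s3y and Kdm5d were detected on 2 of 2 female-labelled arrays but 0 of 2 male-labelled ones, and Xist was detected the other way round. The pairs keep their labelled names here, and each ratio is taken within a pair. The ages come from the same labels and were not checked against the data. Of 2 Pnpt1 probes, A_51_P453343 was at 11.38 and 10.71 on the log2 intensity scale in the male and female HepKO mice and at 11.20 and 11.09 in their WT partners, with a log2 ratio of -0.10 (adjusted p = 0.747). A_52_P229271 had -0.52 (adjusted p = 0.0800, over all kept probes), and the sources used here do not say whether either probe lies in the deleted part. All 13 measured hepatocyte markers were above background on 4 of 4 arrays in HepKO and in WT. So were 14 of 14 endothelial and 14 of 15 macrophage markers in HepKO, and 13 and 12 of them in WT. Detection alone therefore does not set hepatocytes apart from these cells. In WT, 4 of 17 lymphocyte and 1 of 10 neutrophil markers were above background on 4 of 4 arrays.

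Before a cell divides, its replication origins are licensed when the origin recognition complex, with Cdc6 and Cdt1, loads the ring-shaped MCM2-7 helicase onto DNA. Kinases then fire the origins, and polymerases, a sliding clamp, ligase and nucleotide-making enzymes copy the genome while chaperones rebuild the chromatin behind the fork. Many of these genes are transcribed under E2F factors as cells pass from G1 to S phase. In the healthy adult liver most hepatocytes rest outside the cycle and re-enter it after tissue loss or injury.

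Replication genes were mostly higher in HepKO hepatocyte preparations than in WT. Of the 42 measured, 22 rose, 1 fell (Mcm10) and 19 did not pass an adjusted p of 0.05, while 12.0% of all 11489 genes were higher and 3.72% lower in the same limma fit. The median log2 ratio over the 42 genes was 0.85 (male pair 0.73, female pair 0.87), and the median over all genes was 0.083. The 22 genes that rose did so by 1.61-fold (Pole2) to 10.9-fold (Mcm6). At least 2-fold were 17 of them, against 1038 of the 1378 higher genes in the whole series. Of the 42, 35 had a ratio above 0 on all 4 arrays and 3 (Mcm10, Pold2 and Rpa1) below 0 on all 4. Among all 11489 genes, 4531 were above 0 on all 4 arrays and 2871 below. Among the 19 that did not pass, 7 had an unadjusted p under 0.05, against 2372 of 9684 in the whole series. Bulk RNA cannot tell more cells in S phase from more of each transcript per cell.

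**Figure D1:**
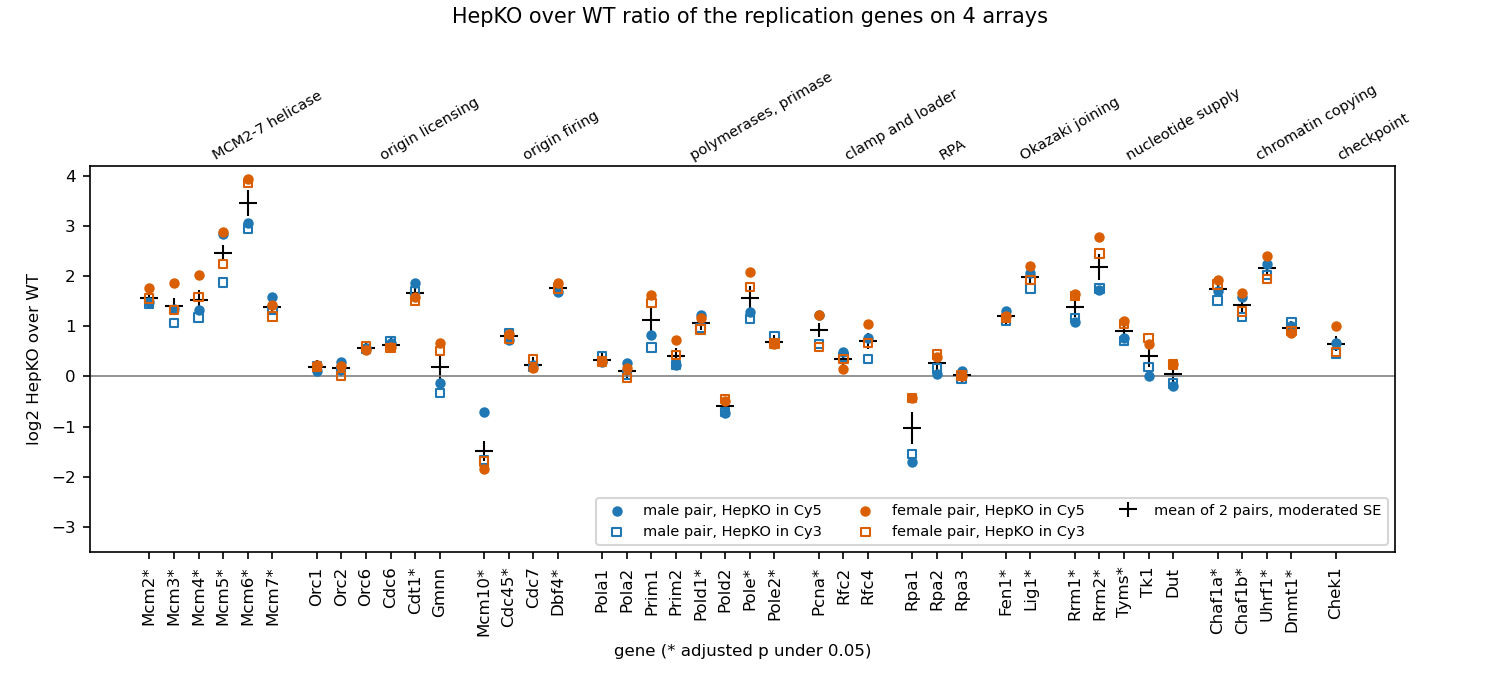
Log2 HepKO over WT ratio (y axis) of the 42 measured replication genes (x axis), grouped by role. Blue marks are the male pair and orange marks the female pair, filled circles have HepKO in Cy5 and open squares HepKO in Cy3, and the black bar is the mean of 2 pairs with its moderated SE. All 6 helicase genes, both Okazaki-joining genes and all 4 chromatin genes lie above 0 on every array, and Mcm10 lies below 0 on every array.

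The letters of 4 promoters are shown because letters of an E2F site recur among these replication genes. The motif searched was the E2F site TTTCGCGC or TTTGGCGC, on both strands, in RefSeq promoter windows of 300 bases (250 before to 50 after each gene's start, GRCm38.p6). Of the 42 genes, 37 had a window, and 11 of those (29.7%) held the motif in at least 1 window, against 159 of 9251 tested genes with a window (1.72%). The 160 bases before the start are given 5′ to 3′ on the gene's strand, with E2F matches in capitals. They are the 2 genes with the largest increases at the background offset of 50 (Uhrf1 and Rrm2 exceeded Mcm5 with an offset of 10 and in the Feature Extraction ratios, where Uhrf1 also exceeded Mcm6), an origin gene with the motif that did not pass, and the gene that fell.
Mcm6, chr1:128359706-128359865, minus strand: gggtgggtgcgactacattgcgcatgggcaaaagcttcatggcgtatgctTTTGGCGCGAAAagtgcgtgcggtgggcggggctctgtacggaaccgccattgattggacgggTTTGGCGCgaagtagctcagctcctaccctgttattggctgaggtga
Mcm5, chr8:75109349-75109508, plus strand: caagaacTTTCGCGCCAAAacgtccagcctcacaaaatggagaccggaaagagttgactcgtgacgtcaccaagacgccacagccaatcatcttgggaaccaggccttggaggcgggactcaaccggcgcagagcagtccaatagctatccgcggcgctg
Orc1, chr4:108579294-108579453, plus strand: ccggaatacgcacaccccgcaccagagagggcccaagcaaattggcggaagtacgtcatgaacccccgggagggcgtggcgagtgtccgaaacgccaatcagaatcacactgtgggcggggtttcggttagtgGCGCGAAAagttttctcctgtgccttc
Mcm10, chr2:5012792-5012951, minus strand: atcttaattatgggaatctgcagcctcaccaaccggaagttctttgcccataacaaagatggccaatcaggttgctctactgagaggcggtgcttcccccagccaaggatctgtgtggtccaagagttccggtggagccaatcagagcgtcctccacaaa

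The Mcm6 window has E2F matches that begin 110, 106 and 47 bases before the start, of which the pair at 110 and 106 lies on opposite strands and overlaps. Mcm5 has an overlapping pair at 153 and 149 bases, and Orc1 has a single match at 27 bases on the opposite strand. No E2F match was found in the Mcm10 window, which holds CCAAT at 98 and 23 bases before the start and at 32 bases after it. Of the 20 genes that rose and have a window, 9 held the E2F motif (Mcm3, Mcm5, Mcm6, Mcm7, Cdt1, Lig1, Dnmt1, Uhrf1 and Pole2), and of the 16 that did not pass, 2 did (Orc1 and Pola1). The median log2 ratio was 1.40 over the 11 genes with the motif and 0.68 over the 26 with a window but no match. In lists set out below, the motif was found in 2 of 28 other replication factors with a window. It was found in 0 of 12 S-phase repair and checkpoint genes and in 3 of 16 G1/S regulators. In these lists 10 of 32, 9 of 18 and 7 of 21 measured genes rose. A link between motif and rise was not tested. A match describes letters and is no evidence of binding, and 8 of the 37 genes had more than 1 window to match in.

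The MCM2-7 helicase rose in all its subunits. This ring of Mcm2, Mcm3, Mcm4, Mcm5, Mcm6 and Mcm7 unwinds DNA ahead of the fork, and all 6 genes passed, with log2 ratios between 1.38 (Mcm7) and 3.45 (Mcm6). On the log2 intensity scale Mcm6 was at 12.70 and 12.51 in the male and female HepKO mice, against 9.69 and 8.62 in their WT partners. Its log2 ratio was 3.06 and 2.95 on the male arrays, and 3.94 and 3.85 on the female arrays. Both HepKO mice lay above both WT mice, and the mean ratio was 3.45 ± 0.26 (moderated SE, n = 2 pairs, adjusted p = 0.0127).

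Mcm5 was at 10.29 and 10.36 in the HepKO mice and at 7.93 and 7.80 in the WT mice. Its mean ratio was 2.46 ± 0.15 (adjusted p = 0.0114), with larger values on the arrays with HepKO in Cy5 (2.85 and 2.88) than on those with HepKO in Cy3 (1.87 and 2.24). Averaging the 2 dye orientations of a pair cancels such a dye effect. Mcm7 had the smallest change of the ring, 1.38 ± 0.15 (adjusted p = 0.0169), at 11.71 and 11.69 in the HepKO mice against 10.26 and 10.39 in the WT mice. Mcm2, Mcm3 and Mcm4 rose by 1.56, 1.40 and 1.52 on the log2 scale. The 2 probes of Mcm3 gave 1.40 and 1.42.

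Origin licensing genes had a median log2 ratio of 0.37. Of 6 measured, only Cdt1, the factor that brings the helicase to the origin, rose (1.66 ± 0.15, adjusted p = 0.0153). It was at 9.76 and 9.42 in the HepKO mice and at 7.98 and 7.88 in the WT mice. The origin recognition subunits had ratios of 0.16 (Orc2), 0.18 (Orc1) and 0.56 (Orc6), with adjusted p-values of 0.465, 0.407 and 0.0721. Orc2 was at 8.41 and 8.11 in the HepKO mice and at 8.20 and 7.996 in the WT mice, so that the genotypes overlapped. Orc6 was at 9.86 and 9.73 in the HepKO mice and at 9.31 and 9.17 in the WT mice, and its 4 array ratios lay between 0.53 and 0.59.

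By their kept probes Cdc6, the ATPase that loads the helicase with Cdt1, and Orc1 were well above background on all 4 arrays in HepKO and on 0 of 4 in WT. Cdc6 was at 6.79 and 6.81 in the HepKO mice and at 6.11 and 6.24 in the WT mice. That is at least 1.54-fold higher by signal, and Cdc6 did not pass (adjusted p = 0.0606). The other Cdc6 probe was above background on 0 of 4 arrays in HepKO and in WT, and was left out by the filter on dim probes. Orc1 was at 6.23 and 6.21 in the HepKO mice and at 6.08 and 6.00 in the WT mice, at least 1.12-fold higher. Here and below "at least" sets the HepKO mean against the higher of the WT signal and the weakest signal well above background on the same array. It leaves out the spread between pairs and is no confidence limit. For Cdc6 it equals the measured log2 ratio (0.63), and for Chek1 nearly so. Gmnn encodes geminin, which binds Cdt1 and blocks relicensing. It was at 10.62 and 10.72 in the HepKO mice and at 10.85 and 10.13 in the WT mice, and its ratio of 0.18 ± 0.25 did not pass (adjusted p = 0.631). The ratio was negative on both arrays of the male pair (-0.13 and -0.33) and positive on both of the female pair (0.67 and 0.50).

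**Figure D2:**
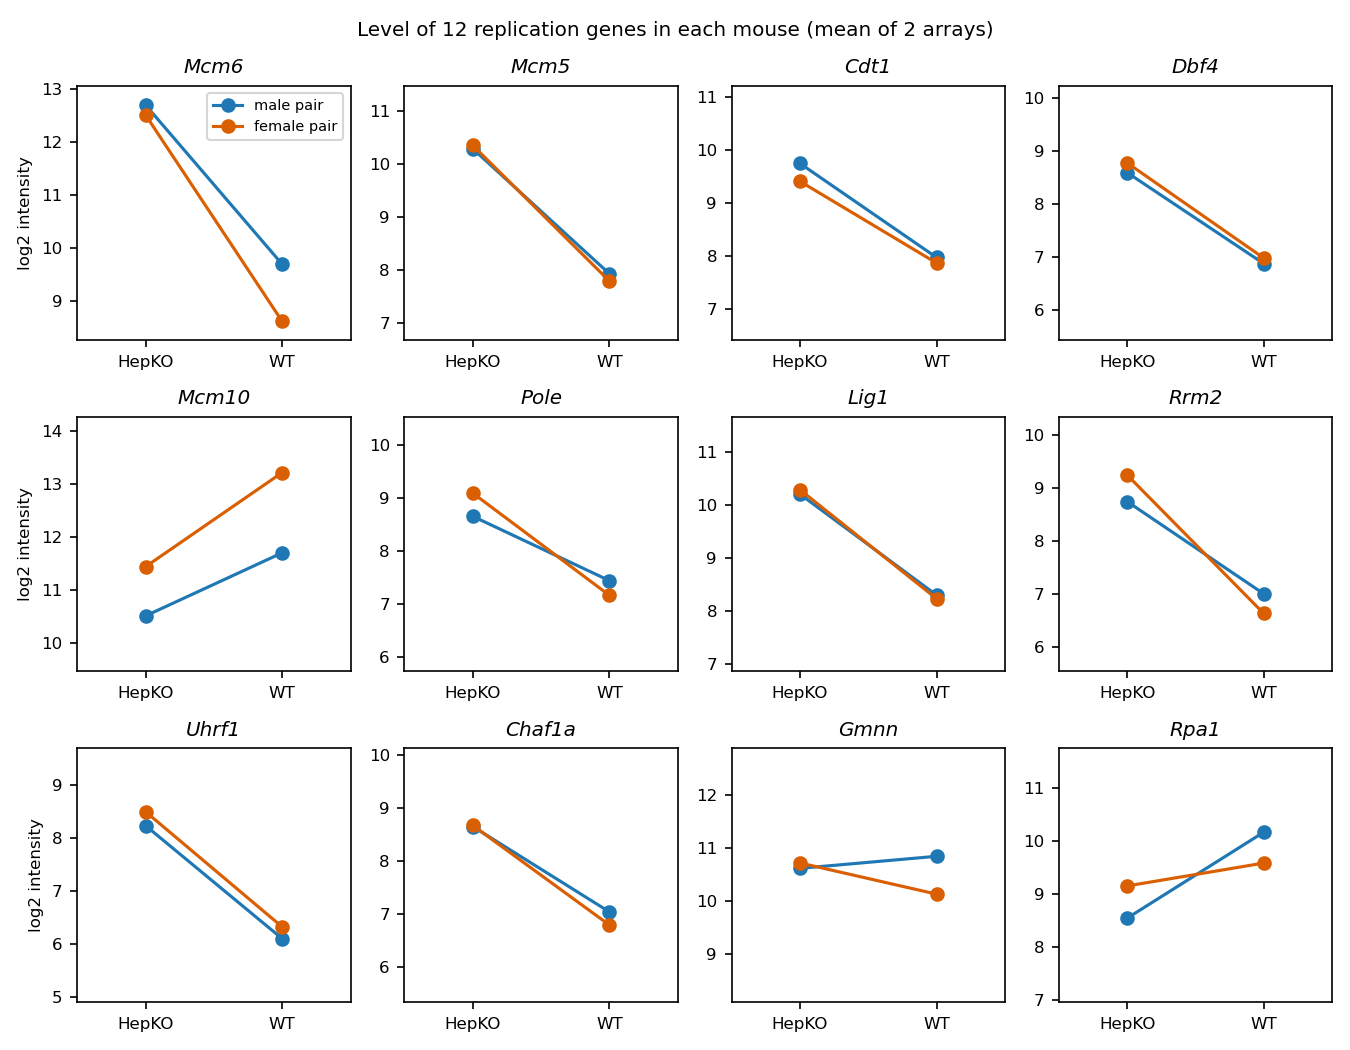
Log2 intensity (y axis, each panel spanning the same range) of 12 replication genes in the HepKO mouse (left) and the WT mouse (right) of each pair, as the mean of 2 arrays; blue is the male and orange the female pair. Mcm6, Mcm5, Cdt1, Dbf4, Pole, Lig1, Rrm2, Uhrf1 and Chaf1a are higher in both HepKO mice, Mcm10 and Rpa1 are lower within both pairs, and the lines of Gmnn run in opposite directions.

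Of 4 origin firing genes, 2 rose and 1 fell. Dbf4, the regulatory subunit of the Cdc7 kinase that triggers the loaded helicase, rose by 1.76 ± 0.14 on the log2 scale (adjusted p = 0.0142). It was at 8.59 and 8.78 in the HepKO mice and at 6.87 and 6.98 in the WT mice. The kept probe of its partner Cdc7, the catalytic subunit, was detected on all 4 arrays in the HepKO channel but on 0 in the WT channel. By that probe Cdc7 was at 6.28 and 6.23 in the HepKO mice and at 6.07 and 5.96 in the WT mice, at least 1.14-fold higher (adjusted p = 0.300). Its other probes were left out by the filter on dim probes. They were above background on 2 and 1 of 4 arrays in HepKO and on 0 in WT, with bounds of 1.05-fold and 1.01-fold. Cdc45, which joins the MCM ring to form the active helicase, rose by 0.80 ± 0.14 (adjusted p = 0.0381). Its call was lost without male pair replicate 2 (0.0664) and when replicate 1 of the female pair was left out (0.0517), within a range of 0.0156 to 0.150 over the 13 alternatives that tested it, and its ratio was 1.92 with the Feature Extraction ratios.

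Mcm10, a scaffold for the firing step, was the only member that fell. It was at 10.50 and 11.43 in the HepKO mice, against 11.69 and 13.21 in the WT mice, so that each HepKO mouse lay below its own WT partner and all 4 mice were above background. The log2 ratio was -0.72 and -1.66 on the male arrays, and -1.85 and -1.70 on the female arrays. Its mean was -1.48 ± 0.20 (adjusted p = 0.0244). Without male pair replicate 2 the adjusted p was 0.0847, and from the Cy5-labelled HepKO arrays alone it was 0.0606, within a range of 0.00628 to 0.111 over 14 alternatives. The call rests on 1 probe, whose sequence the files do not give.

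Polymerase genes rose in 3 of 8 cases. Pole, the catalytic subunit of the leading-strand polymerase epsilon, was at 8.65 and 9.08 in the HepKO mice and at 7.43 and 7.16 in the WT mice, and rose by 1.57 ± 0.23 (adjusted p = 0.0270). Pold1, the catalytic subunit of the lagging-strand polymerase delta, rose by 1.07 ± 0.14 (adjusted p = 0.0232), and its other probe gave 1.14. Pole2, the second subunit of polymerase epsilon, rose by 0.69 ± 0.14 with an adjusted p of 0.0496. Pole2 passed the filter on dim probes through HepKO alone, being above background in WT on 2 of 4 arrays. Its call was lost without male pair replicate 2 (0.0843), when either female array was left out (0.0628 and 0.0502) and from the Cy5-labelled HepKO arrays alone (0.0653), within a range of 0.0165 to 0.181 over the 13 alternatives that tested it. Its ratio was 1.80 with the Feature Extraction ratios and 1.31 with an offset of 10.

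The priming complex did not pass. Prim1, the catalytic primase subunit, had a log2 ratio of 1.13 ± 0.25 (adjusted p = 0.0579). It was at 8.91 and 9.50 in the HepKO mice and at 8.21 and 7.95 in the WT mice, without overlap, but the ratio of the male pair was 0.70 and that of the female pair 1.55. Prim2, its regulatory subunit, had 0.40 ± 0.17 (adjusted p = 0.172). The polymerase alpha subunits Pola1 and Pola2 had 0.32 ± 0.14 (adjusted p = 0.190) and 0.11 ± 0.14 (adjusted p = 0.617). Pola2 was at 8.81 and 8.85 in the HepKO mice and at 8.66 and 8.78 in the WT mice. The catalytic and the accessory subunit of polymerase delta had ratios of opposite sign: Pold2 was at 8.67 and 8.90 in the HepKO mice and at 9.39 and 9.37 in the WT mice, with -0.59 ± 0.15 (adjusted p = 0.0760). The difference between these 2 genes was not tested.

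Pcna, the sliding clamp that tethers polymerases to DNA, was at 11.79 and 11.89 in the HepKO mice and at 10.86 and 10.99 in the WT mice. It rose by 0.92 ± 0.14 (adjusted p = 0.0293), with 1.23 on each array with HepKO in Cy5 and 0.64 and 0.58 on those with HepKO in Cy3. Without female pair replicate 1 its adjusted p was 0.0680, from the Cy3-labelled HepKO arrays alone 0.0525 and with the Feature Extraction ratios 0.0620, within a range of 0.0177 to 0.117 over 14 alternatives. The clamp loader subunits did not pass. Rfc4 had 0.71 ± 0.16 (adjusted p = 0.0591), at 8.63 and 8.93 in the HepKO mice against 8.07 and 8.07 in the WT mice. Rfc2 had 0.34 ± 0.15 (adjusted p = 0.184) on its brighter probe and 0.26 on the other. Its levels, 11.68 and 11.81 in the HepKO mice and 11.24 and 11.56 in the WT mice, did not overlap.

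None of the 3 subunits of RPA, the complex that coats single-stranded DNA, passed. Rpa1, the large DNA-binding subunit, was at 8.54 and 9.15 in the HepKO mice and at 10.16 and 9.58 in the WT mice. Its ratio was below 0 on all 4 arrays, with -1.62 for the male pair and -0.43 for the female pair, and the mean was -1.03 ± 0.33 (adjusted p = 0.109). Rpa2 had 0.26 ± 0.16 (adjusted p = 0.311), at 7.64 and 7.97 in the HepKO mice against 7.54 and 7.55 in the WT mice. Rpa3 had 0.019 ± 0.14 (adjusted p = 0.935), at 7.59 and 7.85 in the HepKO mice and 7.56 and 7.84 in the WT mice, the ratio closest to 0 among the 42 genes.

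Both genes that process and join the lagging-strand fragments rose. Lig1, the replicative DNA ligase, was at 10.20 and 10.28 in the HepKO mice, against 8.29 and 8.23 in the WT mice, and rose by 1.98 ± 0.15 (adjusted p = 0.0123). Fen1, the nuclease that trims the flaps of these fragments, was at 8.98 and 8.99 in the HepKO mice, against 7.78 and 7.80 in the WT mice, and rose by 1.19 ± 0.14 (adjusted p = 0.0198). In both genes the mice of a genotype lay close together, and the genotypes did not overlap.

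Of 5 nucleotide supply genes, 3 rose. Both subunits of ribonucleotide reductase, which makes deoxynucleotides, rose: Rrm2, the small subunit, by 2.18 ± 0.26 (adjusted p = 0.0197) and Rrm1, the large subunit, by 1.38 ± 0.19 (adjusted p = 0.0244). Rrm2 was at 8.75 and 9.25 in the HepKO mice and at 7.01 and 6.64 in the WT mice, with ratios of 1.74 (male pair) and 2.61 (female pair). Tyms, thymidylate synthase, rose by 0.90 ± 0.16 (adjusted p = 0.0398). Its adjusted p was 0.0584 without male pair replicate 2, 0.0506 when replicate 1 of the female pair was left out and 0.0776 with the Feature Extraction ratios, within a range of 0.0311 to 0.120 over 14 alternatives.

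Tk1, the S-phase thymidine kinase of the salvage route, did not pass (0.40 ± 0.21, adjusted p = 0.241). It was at 11.66 and 11.82 in the HepKO mice and at 11.57 and 11.11 in the WT mice, with ratios of 0.095 (male pair) and 0.71 (female pair). Dut, which removes dUTP, was at 9.96 and 10.18 in the HepKO mice and at 10.12 and 9.93 in the WT mice. Its ratio of 0.042 ± 0.17 (adjusted p = 0.883) was negative on both arrays of the male pair (-0.18 and -0.14) and positive on both of the female pair (0.25 and 0.24), and its other probe gave -0.13.

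All 4 genes that restore chromatin behind the fork rose. Uhrf1, which reads hemimethylated DNA, was at 8.23 and 8.50 in the HepKO mice and at 6.10 and 6.32 in the WT mice. It rose by 2.15 ± 0.14 (adjusted p = 0.0119), although in WT it was above background on both arrays of the female pair alone. Its dimmer probe was detected on all 4 arrays for HepKO but on 0 for WT, which makes it at least 2.97-fold higher there. Dnmt1, the methyltransferase that Uhrf1 guides, rose by 0.97 ± 0.15 (adjusted p = 0.0285), at 9.06 and 8.94 in the HepKO mice against 8.02 and 8.05 in the WT mice. With the Feature Extraction ratios the Dnmt1 call was lost (0.0506), within a range of 0.0188 to 0.142 over 14 alternatives. The subunits of the histone chaperone CAF-1, Chaf1a and Chaf1b, rose by 1.74 ± 0.16 (adjusted p = 0.0153) and 1.43 ± 0.14 (adjusted p = 0.0161). Chek1, the kinase that slows replication when forks stall, was detected on 4 of 4 arrays for HepKO but 0 of 4 for WT. It was at 6.75 and 6.95 in the HepKO mice and at 6.19 and 6.20 in the WT mice, at least 1.57-fold higher (adjusted p = 0.0597). Its dimmer probe, detected on the same arrays, was at least 1.455-fold higher, with a log2 ratio of 0.58.

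The ratio was larger in the female than in the male pair for 28 of the 42 genes, against 6015 of all 11489 genes. The widest gaps (male minus female) were in Rpa1 (-1.19), Mcm6 (-0.89), Rrm2 (-0.87) and Prim1 (-0.85), and the widest the other way was in Mcm10 (0.59). Each pair is 1 replicate, so these differences were not tested. The pairs differ at once in slide, in labelled age and in labelled sex, which cannot be told apart.

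**Figure D3:**
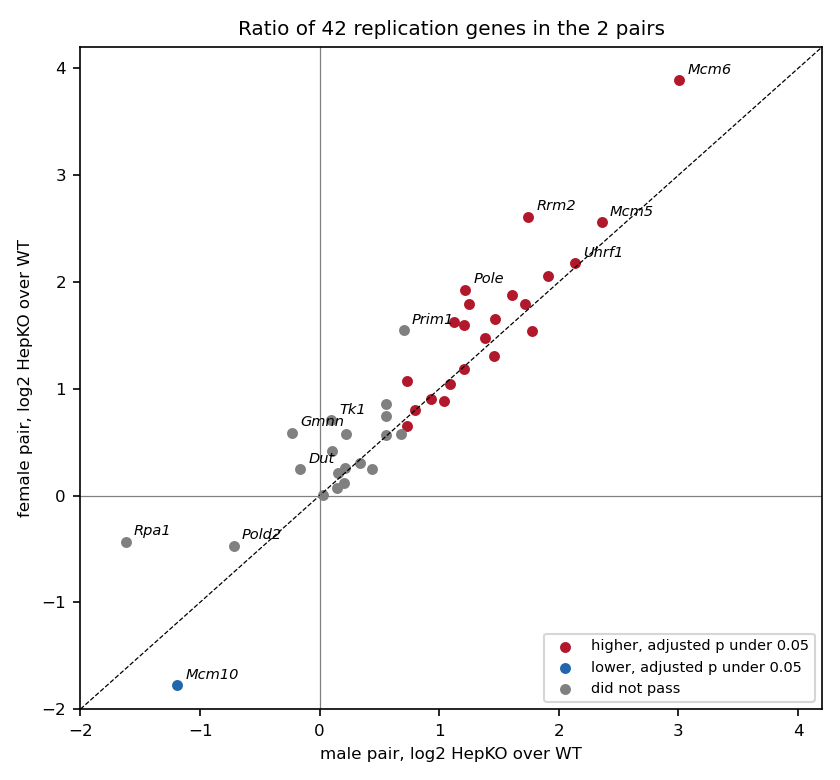
Log2 HepKO over WT ratio of the 42 replication genes in the male pair (x axis) and in the female pair (y axis); each point is a gene, red or blue where it passed, and the dashed line marks equal ratios. Mcm6 stands highest on both axes, 28 genes lie above the dashed line, and Gmnn and Dut lie on opposite sides of 0 in the 2 pairs.

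How large the change appeared depended on the background correction for the dimmest genes. The main values add 50 intensity units to every signal, which draws ratios of dim probes towards 0. In the Feature Extraction log ratios, which subtract background without that addition, Cdc6 had 3.23 (adjusted p = 0.0228), Chek1 2.78 (0.0222), Orc1 2.38 (0.0151) and Cdc7 2.38 (0.0141). All 4 genes passed there and did not pass in the main fit, and their WT signal was at background on every array, so that only the bounds above are given as folds. The adjusted p ranged from 0.0204 to 0.191 over 13 alternatives for Cdc6, from 0.0214 to 0.147 for Chek1, from 0.0151 to 0.566 for Orc1 and from 0.0141 to 0.535 for Cdc7, since the strict filter left these 4 genes out. Among the 35 genes above background in WT on 4 of 4 arrays, 19 rose and 1 fell, with a median of 0.97. Mcm6 moved little (3.54 with the Feature Extraction ratios against 3.45). Among the genes that rose, 7 moved by more than 1.5-fold between the same 2 settings and passed in both. Uhrf1 was at 4.30 against 2.15, Rrm2 at 3.12 against 2.18, Chaf1a at 2.43 against 1.74 and Dbf4 at 2.35 against 1.76. Mcm2 was at 2.26 against 1.56, Cdc45 at 1.92 against 0.80 and Pole2 at 1.80 against 0.69. With an offset of 10, Uhrf1 was at 3.20.

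**Figure D4:**
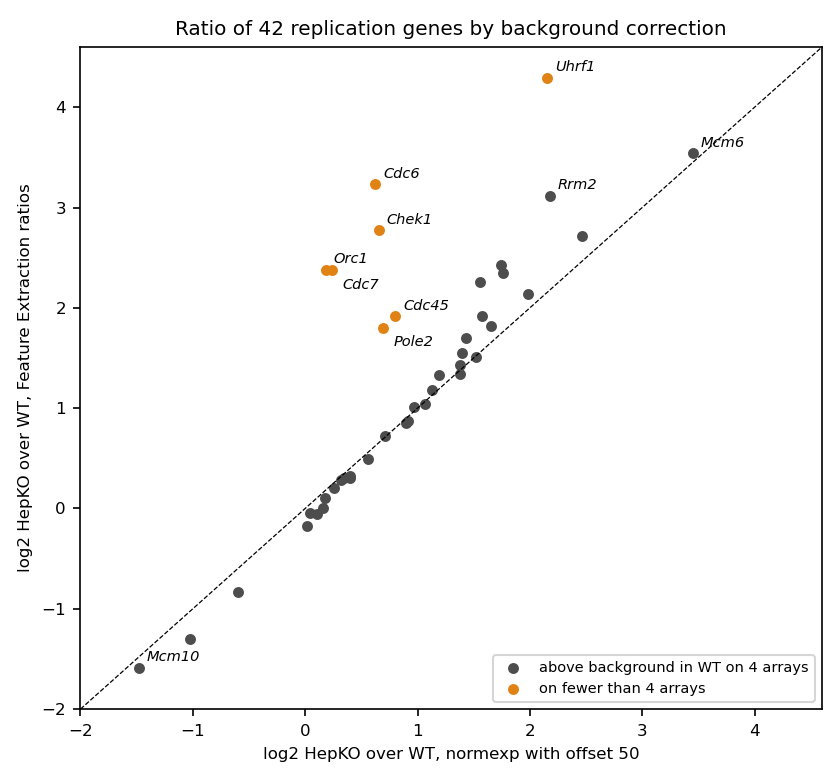
Log2 HepKO over WT ratio of the 42 replication genes with normexp and an offset of 50 (x axis) against the Feature Extraction ratio (y axis), as the mean of 2 pairs; orange points were above background in WT on fewer than 4 arrays and the dashed line marks equal ratios. Cdc6, Chek1, Orc1, Cdc7 and Uhrf1 lie far above the line, and Mcm6 and Mcm10 lie near it.

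Related gene lists were set beside the 42 genes. Of all 11489 genes, 12.0% were higher and 3.72% lower in the same fit. Of 32 other replication factors, 10 rose and none fell, with a median of 0.30. They were led by the histone chaperone Asf1b (2.17 ± 0.16), topoisomerase Top2a (1.93 ± 0.17) and Atad2 (1.30 ± 0.14). Of 21 regulators of the G1 to S transition, 7 rose and none fell (median 0.55), among them Ccnd2 (2.22 ± 0.22) and Ccnd1 (1.93 ± 0.37). Myc had the largest ratio of that list, 2.35 ± 0.53, and did not pass (adjusted p = 0.0583). Of 6 CDK inhibitors, which hold cells back from S phase, 1 rose, Cdkn1a (p21; 2.83 ± 0.16), and the next largest ratios were Cdkn2c at 0.99 ± 0.30 (adjusted p = 0.0997) and Cdkn1c at 0.92 ± 0.41 (adjusted p = 0.192).

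Of 18 genes of S-phase repair and checkpoint, 9 rose and none fell (median 0.86), among them Fanci (2.12 ± 0.15), a gene of crosslink repair. Of 24 mitosis genes, 22 rose and none fell, with a median of 2.63, led by Cdc20 (5.05 ± 0.22), Kif20a (4.28 ± 0.20) and Ccna2 (4.03 ± 0.21). In 19 mitosis genes with a promoter window the E2F motif was found in 1, and TTTGAA, the letters of the cell cycle homology region, in 13, against 7 of the 37 replication genes and 1391 of 9251 tested genes (15.0%). Genes for mtDNA replication and for nucleotide supply outside S phase had a median of -0.023, and of 17 measured 2 rose and 2 fell. Over all genes the shares were 12.0% higher and 3.72% lower. Samhd1, which degrades deoxynucleotides, rose by 2.07 ± 0.38 and Dck, deoxycytidine kinase, by 1.16 ± 0.15, while thymidine phosphorylase (Tymp; -1.09 ± 0.16) and the mitochondrial polymerase subunit Polg2 (-0.77 ± 0.16) were lower.

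Markers of other cell types moved on the same arrays, where 12.0% of all genes were higher and 3.72% lower. Of 15 macrophage markers, 12 rose and none fell (median 1.61, led by Marco, Cybb and Lyz2), and their summed level was 77.2 and 83.4 (in multiples of 1000 intensity units) in the HepKO mice, against 10.3 and 23.6 in the WT mice. A ratio above 0 on all 4 arrays was found in 14 of the 15. The remaining 1 was below 0 on all 4, with a mean of -0.75 that did not pass. Of 17 lymphocyte markers, 9 rose (median 0.92, led by Gzmb, Nkg7 and Cd8b1), with sums of 4.45 and 3.12 in HepKO and 1.34 and 1.42 in WT. Of 14 endothelial markers, 8 rose (median 1.00, led by Cd34, Lyve1 and Emcn), with sums of 16.8 and 15.8 in HepKO and 9.94 and 7.29 in WT. Of 12 stellate and fibroblast markers 6 rose (sums 20.4 and 18.4 in HepKO, 10.4 and 9.94 in WT), of 10 neutrophil markers 3 (4.73 and 2.48, against 0.917 and 0.812) and of 7 cholangiocyte markers 2 (3.54 and 6.54, against 1.10 and 1.00), and none fell. Of 6 erythroid markers 1 rose and 1 fell (sums 2.88 and 10.6 in HepKO, 2.16 and 8.67 in WT). The lymphocyte marker Cd79a, the cholangiocyte markers Cftr, Krt7 and Muc1, the neutrophil marker Cxcr2 and the erythroid marker Epb42 were never above background. The sum of the 13 hepatocyte markers was 869 and 1009 in HepKO and 1112 and 873 in WT, with a median log2 ratio of -0.046 and 1 gene lower (Cyp2e1, -2.38 ± 0.30). The part of these cells in the change of the replication genes was not tested.

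**Figure D5:**
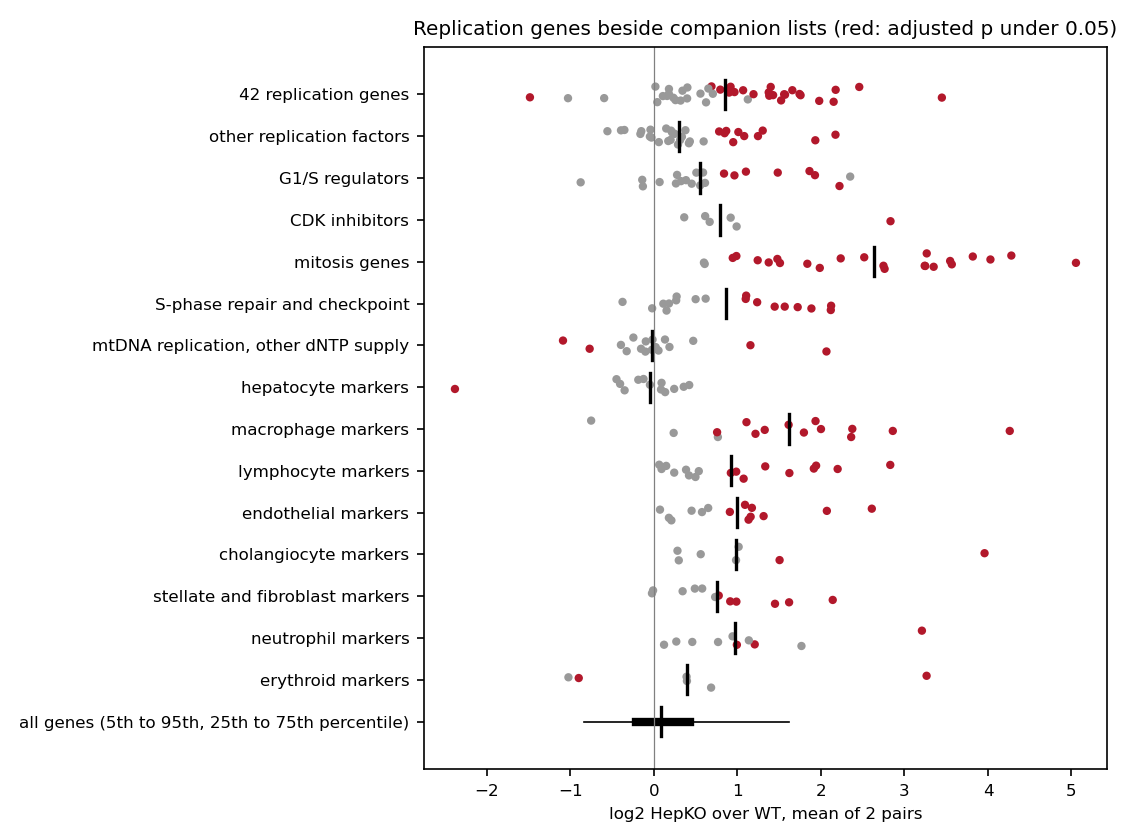
Log2 HepKO over WT ratio (x axis, mean of 2 pairs) of single genes (points) in the 42 replication genes and in companion and marker lists (rows); red points have an adjusted p under 0.05 and the black tick is the median. The bottom row shows the percentiles of all 11489 genes around a median of 0.083; the replication genes have a median of 0.85, the mitosis genes 2.63 and the macrophage markers 1.61.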

How the data were processed

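Intensities come from Agilent Feature Extraction 10.2.1.3, per the file headers. The deposited intensity values used are each spot's mean and its local background median, with nothing subtracted. The deposited log10 ratios, in which the same software had removed background and balanced the dyes (per the file headers), and the authors' value table of the same log10 ratios turned to HepKO over WT served as alternatives. Spots with outlier flags (178 to 260 per array, of 45018) were left out first, since 1 array has local backgrounds of up to 41157 there. Background was corrected by normexp (offset 50), then loess was run within each array, with 1639 control spots at weight 0 (limma 3.58.1, R 4.3.3). Log2 ratios, all expressed as HepKO over WT, were averaged over the 2 dye orientations of a pair. Probes well above background on both arrays of a pair in at least 1 genotype were kept (22844 of 41174). RefSeq accessions named 22951 probes (55.7%, GRCm38.p6, for names), and a gene took the value of its brightest kept probe. Genes with a flagged spot on any array were not tested. Levels per mouse come from Aquantile scaling of the loess values. The test was limma with an intercept on 2 pair values (1 residual and 3.12 prior degrees of freedom), with Benjamini-Hochberg adjustment over 11489 genes and a threshold of 0.05. The code was tested on simulated data. The number of mice limits the precision. P-values and SEs rest on the spread between 2 pairs, moderated towards a variance shared by all genes. With 3.12 prior against 1 residual degrees of freedom, the shared variance carries more weight than a gene's own spread. For Cdc45 the pairs had ratios of 0.794 and 0.798, and the SE was 0.14.

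Members, lists, tests and alternatives were chosen with earlier results of these data known. All members could be named, as could Pnpt1, sex-chromosome genes and the 3 largest absolute changes of each companion list; list genes never above background are named as well. Some genes of these lists are not reported here. Of the 42 measured members, 37 passed the filter in both genotypes and 5 (Orc1, Cdc6, Cdc7, Pole2 and Chek1) through HepKO alone, so that for those a difference was in part required.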

Additional observations from a re-analysis of the deposited data

Results flagged for a closer look

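Gmnn and the brighter Dut probe stood out because the arrays of 1 pair all ran opposite to those of the other. For Gmnn the log2 HepKO over WT ratio was -0.23 (male pair) and 0.59 (female pair), a difference (male minus female) of -0.82. For Dut it was -0.16 (male pair) and 0.25 (female pair), a difference of -0.41. The other kept Dut probe did not show this, with -0.28 and -0.33 on the male arrays, and 0.16 and -0.058 on the female arrays. These differences were not tested, since each pair is 1 replicate.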

How the results depend on the processing

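Of 14 alternatives, 12 left calls, and 16 of the 23 called members kept theirs in all 12. Among these 12, Uhrf1 kept its call wherever it was tested and was left out by the strict filter. There 6 members (Cdc45, Dnmt1, Mcm10, Pcna, Pole2 and Tyms) lost their call in some, and 7 (Cdc6, Cdc7, Chek1, Orc1, Orc6, Prim1 and Rfc4) gained one in some. With normexp fitted on all spots, limma called 0 members higher, 0 lower and 0 genes either way (28 members and 3025 genes at an unadjusted p under 0.05). Without the filter on dim probes it called 0 of each as well (31 members and 4636 genes unadjusted). No called member changed sign. The members' median was 1.34 with the Feature Extraction ratios and with the authors' table, 1.18 with offset 10, 0.71 with all spots in the fit and 0.97 with the strict filter. From the Cy5-labelled HepKO arrays alone limma called 0 members lower, and with HepKO in Cy3 alone 682 genes were lower. Leaving out each array in turn gave 18 to 22 members higher and 0 to 1 lower, 921 to 1572 genes higher and 203 to 572 lower, and medians of 0.77 to 0.86. Without male pair replicate 2, 203 genes were lower against 427. Dut turned to -0.049 with the Feature Extraction ratios and the authors' table, -0.0034 with all spots and -0.043 with the mean of probes. Pola2 turned to -0.057 with both deposited ratios. Rpa3 turned to -0.17 with both, -0.020 with HepKO in Cy3 alone and between -0.024 (without male pair replicate 1) and 0.062 with single arrays left out. The cause of these changes was not tested. The test is already paired, because the ratio is taken within a pair. No further pairing of arrays between the pairs was possible, since the array numbers are no shared replicate.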
